A study of Mus musculus with 12 samples.

Results

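The AP-1, BATF and ATF3 genes are 10 bZIP transcription factor genes, 10 of the 19752 genes measured in activated mouse CD4+ T cells given IL-12. They were taken from the deposited value table as the probe sets whose platform gene symbol is Jun, Junb, Jund, Fos, Fosb, Fosl1, Fosl2, Batf, Batf3 or Atf3. Each had 1 probe set among the 24922 on the array, so all 10 were found and no choice between probe sets arose. The study recorded how helper T cells respond to IL-12 in culture over hours, with total RNA hybridised to Affymetrix Mouse Gene ST arrays. The source was the spleen of 6-week-old male C57BL/6 mice for all 12 samples, from which CD4+ cells were enriched by negative selection, which can leave other cells behind. CD3/CD28 beads activated these cells for 48 h before IL-12 was added at 100 U/ml. They form 4 groups: IL-12 for 8 h (4 arrays), IL-12 for 2 h (5 arrays), untreated for 2 h (2 arrays, the time given by the titles) and baseline (1 array, with no culture time). No untreated 8 h sample is among them, so a comparison of IL-12 8 h with untreated 2 h joins the cytokine with 6 more hours in culture. Whether replicate arrays stand for different mice or different culture wells is not given, so p-values reflect only the variation among these arrays, part of which may be technical.

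The titles carry a number. IL-12 arrays are numbered 2 to 4 (5 arrays) and 5 to 6 (4 arrays), untreated arrays 7 and 8, and the baseline array 5. No label explains the numbers. Values differed between the arrays numbered 2 to 4 and those numbered 5 to 8 for many genes. Unless stated otherwise, each limma change below therefore comes from a model with that run of numbers as a term. Values within a run are given for many of the members' changes, and for none of the changes of list genes. Both untreated arrays were placed in the run 5 to 8, where only 2 IL-12 2 h and 2 IL-12 8 h arrays can be set against them. That the numbers 7 and 8 belong with 5 and 6 is an assumption, which the run term cannot check. No IL-12 array is numbered 7 or 8, so a difference that goes with these numbers cannot be told apart from IL-12.

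AP-1 is a dimer that contains a Jun protein, which can pair with a Fos, ATF or BATF protein or with another Jun protein through a leucine zipper. The dimer binds short DNA sites through the adjoining basic region. In T cells, signals of the antigen receptor and CD28 raise Fos and Jun transcription and activate Jun protein through JNK kinases, and AP-1 then binds with NFAT at cytokine genes such as Il2. BATF pairs with Jun proteins and binds with IRF4 at composite sites, and ATF3 is a stress-induced factor that can repress its targets. IL-12 signals mainly through STAT4, whose sites have the form TTCNNNGAA.

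The upstream windows of Jun, Fos and Atf3 are shown because these genes gave the 3 different patterns described below. Each window holds 250 bases before the RefSeq gene start on GRCm38.p6, 5′ to 3′ on the gene's strand, with motif matches in capitals. The motifs searched on both strands were TGACATCA (the Jun-type AP-1 site) and TGANTCA (the classical AP-1 site, widened to any middle base). The others were TGACGTCA (the CRE), TGACG (the CRE core, contained in the CRE) and TTCNNNGAA (the STAT site). The Jun window lies at chr4:95052223-95052472 on the minus strand, the Fos window at chr12:85473640-85473889 on the plus strand and the Atf3 window at chr1:191183334-191183583 on the minus strand.
Jun: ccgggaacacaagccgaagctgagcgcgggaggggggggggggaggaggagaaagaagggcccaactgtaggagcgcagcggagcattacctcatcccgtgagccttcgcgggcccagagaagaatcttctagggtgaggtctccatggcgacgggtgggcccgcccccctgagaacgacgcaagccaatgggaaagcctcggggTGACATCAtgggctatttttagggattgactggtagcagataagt
Fos: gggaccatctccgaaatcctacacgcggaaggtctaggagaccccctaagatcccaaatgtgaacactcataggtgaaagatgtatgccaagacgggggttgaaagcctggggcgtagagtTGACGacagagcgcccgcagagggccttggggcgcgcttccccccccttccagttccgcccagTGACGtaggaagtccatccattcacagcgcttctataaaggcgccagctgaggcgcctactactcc
Atf3: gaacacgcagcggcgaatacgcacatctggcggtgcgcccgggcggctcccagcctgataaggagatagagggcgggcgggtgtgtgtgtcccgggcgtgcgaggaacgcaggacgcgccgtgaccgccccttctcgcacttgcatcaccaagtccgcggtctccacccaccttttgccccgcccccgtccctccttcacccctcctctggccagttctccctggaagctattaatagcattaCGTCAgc
The Jun window held TGACATCA 45 bases before the start, a motif in 2.93% of 32851 mouse windows of this length. The Fos window held TGACG at 129 and 66 bases before the start, and the Atf3 window held its reverse complement CGTCA 7 bases before the start. TGACG was in 5 of the 9 members with a window (Fos, Fosb, Junb, Batf and Atf3), against 17.8% of all windows. TTCNNNGAA was found only in the Batf3 window among the 9, at 239 bases before the start, against 7.02% of all windows. TGANTCA and TGACGTCA, in 6.75% and 1.55% of all windows, were in none of the 9. A match describes these letters and does not show binding.

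Defining T cell genes were high on every array. The log2 intensity ranges over the 12 arrays were 12.44 to 12.91 for Cd3e, 12.56 to 13.12 for Cd3g and 11.51 to 12.07 for Cd4, while the CD8 genes had 7.00 to 7.35 (Cd8a) and 8.53 to 9.42 (Cd8b1), where the median of all genes was 7.37. The macrophage genes Cd14 (5.41 to 6.17) and Csf1r (6.14 to 6.70) were low, but Lyz2 (a lysozyme) ranged from 6.66 to 9.93 and Cd68 from 7.41 to 8.69. The mean of 15 macrophage and monocyte markers was 6.38 to 6.41 (IL-12 8 h) and 6.42 to 6.47 (IL-12 2 h) in the run 2 to 4. In the run 5 to 8 it was 6.62 to 6.73 (IL-12 8 h), 6.67 to 6.78 (IL-12 2 h), 6.78 to 6.89 (untreated) and 6.57 (baseline). It was thus higher on every array of the run 5 to 8 than on any array of the run 2 to 4. As a covariate it largely repeats the run term, which the same fit holds, so precision is lost. A call lost in that fit therefore does not show that these cells account for a change. The part of the marker mean in the members' values was not otherwise tested. Because the RNA is from bulk cells, fewer cells of a type and less RNA per cell cannot be told apart.

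Across the 10 genes, Jun was the only member that passed the test after 2 h of IL-12 against untreated cells, and it stayed higher at 8 h while Fos, Fosb, Fosl2 and Atf3 lay below untreated cells. Calls below are limma tests with Benjamini-Hochberg adjustment over all 19752 genes at adjusted p under 0.05. For IL-12 2 h against untreated, 1 of 10 members was called higher and none lower, where 0.0709% of all genes were called higher (14 genes). No gene was called lower by limma, against 432 lower and 539 higher at an unadjusted p under 0.05, and 2 members were higher at that level. The median log2 change of the members was 0.19, beside -0.003 over all genes. For IL-12 8 h against untreated, 1 member was higher and 4 were lower, where 1.04% of all genes were called higher and 2.13% lower. The median was -0.43 for the members and -0.009 over all genes. For IL-12 8 h against IL-12 2 h, 8 members were lower and none higher, where 6.36% and 6.27% of all genes were called lower and higher, and the median was -0.57 for the members and -0.009 over all genes. The comparisons with untreated cells share the same 2 untreated arrays. For untreated against baseline, 4 members were higher and none lower, where 6.28% and 3.96% of all genes were called higher and lower.

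**Figure D1:**
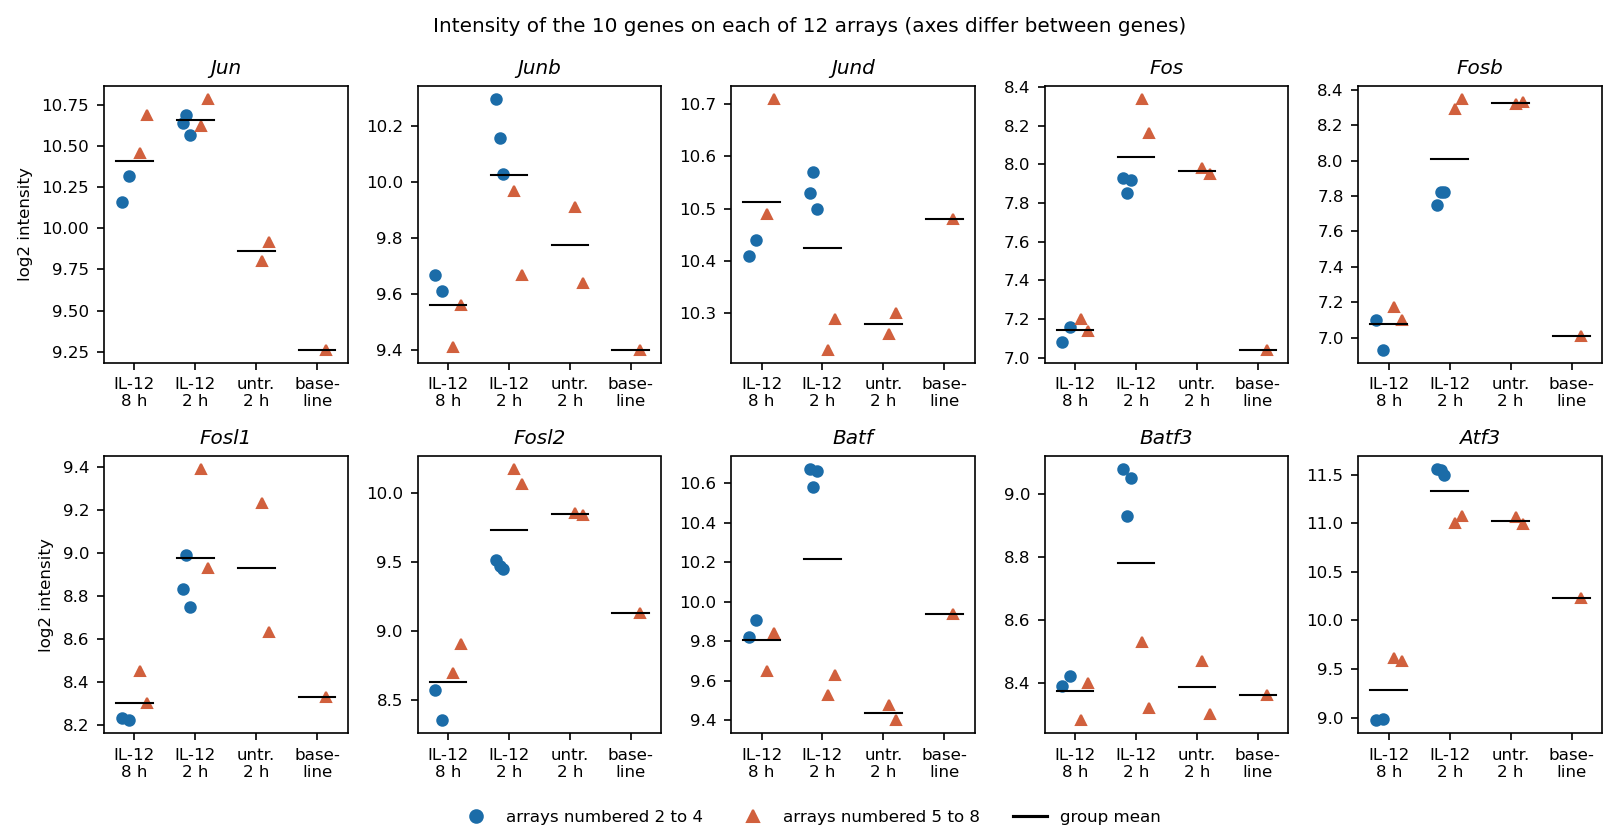
Log2 intensity of the 10 genes on each of the 12 arrays, by group (IL-12 8 h, IL-12 2 h, untreated 2 h and baseline), with symbols for the run of title numbers. Jun on all 9 IL-12 arrays (10.16 to 10.79) lies above both untreated arrays (9.80 and 9.92), as does Batf. Fos and Fosb at IL-12 8 h lie near the baseline array.

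Jun, the founding Jun protein gene, was higher with IL-12 at both times. Its log2 intensity was 10.16, 10.32, 10.46 and 10.69 on IL-12 8 h arrays 2, 3, 5 and 6, against 10.64, 10.69, 10.57, 10.62 and 10.79 on IL-12 2 h arrays 2 to 6. It was 9.80 and 9.92 in untreated arrays and 9.26 in the baseline array. All 9 IL-12 arrays were above both untreated arrays, which were above baseline, and the 2 IL-12 groups overlapped. Among all genes, 6.58% had every IL-12 2 h array above every untreated array. Batf was also among these, and all 9 of its IL-12 arrays were above both untreated arrays.

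Against untreated cells, Jun was higher by a log2 of 0.92 ± 0.11 (SE, 95% interval 0.69 to 1.14) after 2 h of IL-12, which is 1.89-fold, with an adjusted p of 0.00362 (limma). Its p was the 3rd smallest of all genes. Within the run 5 to 8 the difference was 0.84 ± 0.10, with an adjusted p of 0.00636, and 0.101% of all genes were called higher there. The call was lost without untreated array 7 (0.85, adjusted p 0.118), in a fit of the arrays numbered 5 to 8 alone (0.84, adjusted p 0.148) and when the mean of the macrophage markers was a covariate (0.85, adjusted p 0.198). At 8 h of IL-12, Jun was 1.56-fold higher than in untreated cells (log2 0.64 ± 0.11, adjusted p 0.00356), and 0.71 ± 0.10 higher within the run 5 to 8 (adjusted p 0.00106), where 1.56% of all genes were called higher. That call was lost with no run term (0.55, adjusted p 0.0526), without untreated array 7 (0.58, adjusted p 0.0524) and with the macrophage covariate (0.55, adjusted p 0.359).

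Jun was 1.21-fold lower at IL-12 8 h than at IL-12 2 h (log2 -0.28 ± 0.08, adjusted p 0.029), a call that held in 11 of 25 alternative fits, fewer than for the other 7 members called lower. With the title number as a replicate block, the change was -0.28 with an adjusted p of 0.0792. Leaving out any 1 of 7 IL-12 arrays (IL-12 8 h arrays 2, 3 and 5, IL-12 2 h arrays 2, 3, 4 and 6) also ended the call, with changes of -0.21 to -0.28 and adjusted p of 0.0537 to 0.133. Within the run 2 to 4 the change was -0.40 ± 0.09 (adjusted p 0.0126), and within the run 5 to 8 the change was -0.13 ± 0.10 (adjusted p 0.566). The test of the difference between the runs gave -0.27 ± 0.14 (adjusted p 0.408). Untreated cells had 1.52-fold more Jun signal than baseline (log2 0.60 ± 0.14, adjusted p 0.0124), which missed the threshold without untreated array 8 (0.54, adjusted p 0.0607), with the baseline array counted in the run 2 to 4 (0.41, adjusted p 0.335), with no run term (0.60, adjusted p 0.164) and with the macrophage covariate (0.75, adjusted p 0.268).

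**Figure D2:**
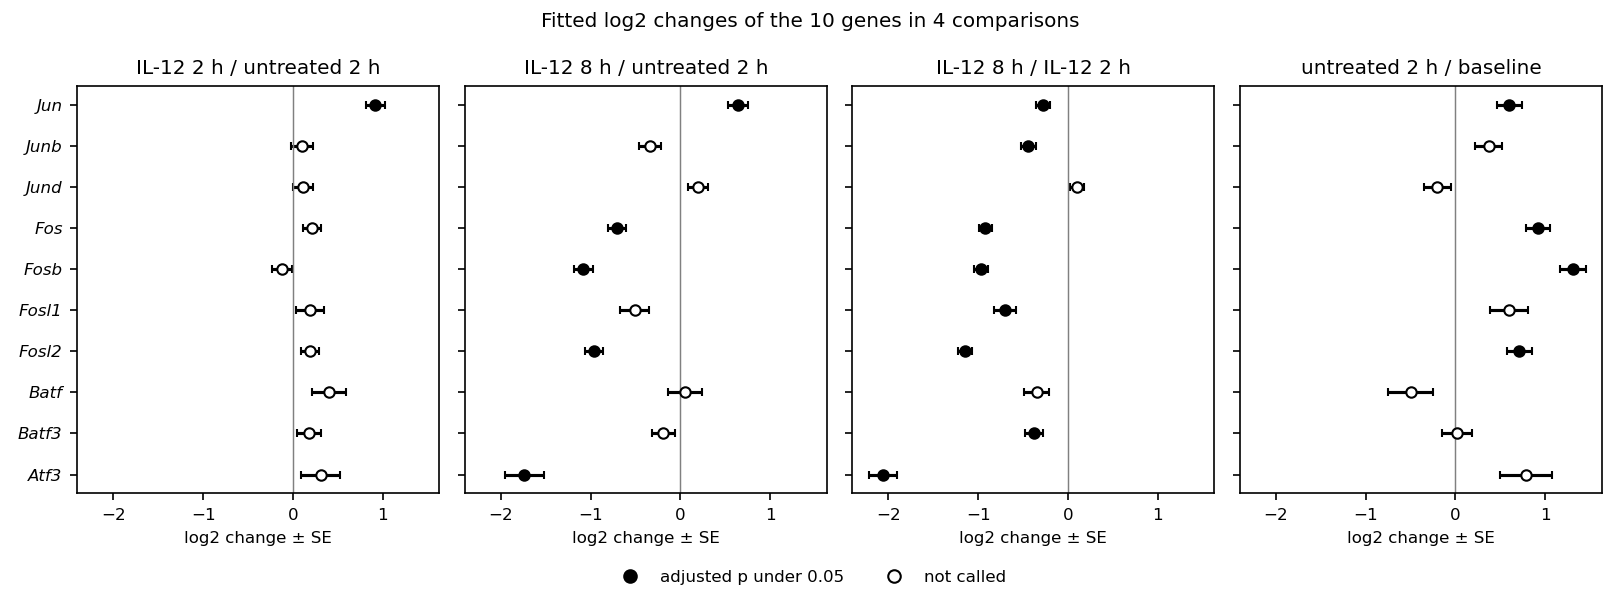
Log2 change of each of the 10 genes in 4 panels (IL-12 2 h against untreated, IL-12 8 h against untreated, IL-12 8 h against IL-12 2 h, untreated against baseline), with bars for the SE of the limma model and filled points for adjusted p under 0.05. Jun is the only gene called higher with IL-12 against untreated cells (0.92 and 0.64), and Atf3 has the largest falls at 8 h (-1.74 against untreated and -2.06 against IL-12 2 h). The change of Atf3 between the IL-12 times differed between the runs, which these values pool.

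Junb and Jund, the other Jun protein genes, did not pass the test against untreated cells at either time. Junb had 9.67, 9.61, 9.41 and 9.56 log2 intensity in IL-12 8 h arrays 2, 3, 5 and 6, and 10.30, 10.16, 10.03, 9.97 and 9.67 in IL-12 2 h arrays 2 to 6. It had 9.91 and 9.64 in untreated arrays and 9.40 at baseline, so the IL-12 2 h group overlapped with untreated cells and with the 8 h group. Its change was 0.10 (adjusted p 0.999) for IL-12 2 h against untreated, and -0.34 ± 0.12 (adjusted p 0.158) for IL-12 8 h against untreated. Junb was 1.35-fold lower at IL-12 8 h than at 2 h (log2 -0.44 ± 0.08, adjusted p 0.00369), with -0.52 within the run 2 to 4 (adjusted p 0.00757) and -0.34 within the run 5 to 8 (adjusted p 0.137). Jund is often found at a high and steady level in resting cells. It had 10.41 to 10.71 on IL-12 8 h arrays, 10.23 to 10.57 on IL-12 2 h arrays, 10.26 and 10.30 on untreated arrays and 10.48 at baseline. Its changes were 0.11 at IL-12 2 h (adjusted p 0.999) and 0.20 ± 0.11 at IL-12 8 h (adjusted p 0.471) against untreated, and 0.10 ± 0.08 (adjusted p 0.564) at IL-12 8 h against 2 h. Within the run 5 to 8, Jund was higher at IL-12 8 h than at 2 h by 0.34 ± 0.09 (adjusted p 0.0356), where 2.03% of all genes were called higher, and within the run 2 to 4 the change was -0.11 (adjusted p 0.477).

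The change of Jun was set directly against that of Junb, its closest relative in this set, using the log2 difference of the 2 probe sets on each array. That difference has no meaning as a ratio of transcripts, and only its change between groups is used. Jun minus Junb was 0.49, 0.71, 1.05 and 1.13 on IL-12 8 h arrays 2, 3, 5 and 6, and 0.35, 0.54, 0.54, 0.66 and 1.11 on IL-12 2 h arrays 2 to 6. It was -0.11 and 0.29 on untreated arrays, below all 9 IL-12 arrays. The mean difference was 0.55 higher at IL-12 2 h than in untreated cells (exact permutation test, two-sided, p = 0.0952, the smallest that 21 arrangements allow), so the design could not reach 0.05. Within the run 5 to 8 it was 0.80 higher (exact permutation p = 0.333, again the smallest possible). Between IL-12 8 h and 2 h, it was 0.16 higher at 8 h, with arrays exchanged within runs (exact permutation test, two-sided, p = 0.267, where 60 arrangements allow 0.0333). The test did not separate the changes of Jun and Junb with time on IL-12, which does not show that they changed alike.

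The Fos protein genes, whose products have no DNA binding as homodimers and need a Jun partner, were all lower at IL-12 8 h than at 2 h, and Fos, Fosb and Fosl2 were also lower than in untreated cells. Fos had 7.08, 7.16, 7.20 and 7.14 log2 intensity on IL-12 8 h arrays 2, 3, 5 and 6, and 7.93, 7.85, 7.92, 8.34 and 8.16 on IL-12 2 h arrays 2 to 6. It had 7.98 and 7.95 on untreated arrays and 7.04 at baseline. All IL-12 8 h arrays were below all IL-12 2 h and untreated arrays, and the IL-12 2 h arrays overlapped with untreated ones. Of all genes, 11.8% had every IL-12 8 h array below every untreated array, 11.8% had every such array above, and 4.23% had every IL-12 8 h array below every IL-12 2 h array. Fos, Fosb, Fosl1, Fosl2 and Atf3 were among those below in both, and Jun, Jund and Batf among those above untreated.

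Fos was 1.64-fold lower at IL-12 8 h than in untreated cells (log2 -0.71 ± 0.10, adjusted p 0.000736) and 1.89-fold lower than at IL-12 2 h (-0.92 ± 0.07, adjusted p 1.49e-06). Fosb, a Fos relative with a similar early response, had 7.10, 6.93, 7.17 and 7.10 on IL-12 8 h arrays and 7.75, 7.82, 7.82, 8.29 and 8.35 on IL-12 2 h arrays, against 8.32 and 8.33 on untreated arrays and 7.01 at baseline. The IL-12 8 h arrays were the lowest of the cultured groups, at the level of the baseline array. Fosb was 2.12-fold lower at IL-12 8 h than in untreated cells (-1.08 ± 0.11, adjusted p 5.64e-05) and 1.95-fold lower than at IL-12 2 h (-0.97 ± 0.08, adjusted p 2.95e-06). Fosl2, which encodes FRA2, had 8.57, 8.35, 8.69 and 8.90 on IL-12 8 h arrays and 9.51, 9.47, 9.45, 10.17 and 10.06 on IL-12 2 h arrays, against 9.85 and 9.84 on untreated arrays and 9.13 at baseline. It was 1.95-fold lower at IL-12 8 h than in untreated cells (-0.96 ± 0.10, adjusted p 0.000131) and 2.23-fold lower than at IL-12 2 h (-1.15 ± 0.08, adjusted p 5.62e-07). Its IL-12 8 h arrays also lay below the baseline array, unlike those of Fos and Fosb.

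Fosl1, which encodes FRA1, had 8.23, 8.22, 8.45 and 8.30 on IL-12 8 h arrays, 8.75 to 9.39 on IL-12 2 h arrays, 9.23 and 8.63 on untreated arrays and 8.33 at baseline. The untreated arrays lay further apart than for the other Fos genes. Fosl1 was 1.63-fold lower at IL-12 8 h than at 2 h (-0.70 ± 0.12, adjusted p 0.0012), and -0.51 ± 0.16 (adjusted p 0.115) against untreated cells. The change against untreated cells was -0.81 without untreated array 8 (adjusted p 0.0238, called) and -0.22 without untreated array 7, which was not called. After 2 h of IL-12 none of the 4 Fos genes passed the test against untreated cells: their changes were 0.21 ± 0.10 (Fos), -0.12 (Fosb), 0.19 (Fosl1) and 0.19 (Fosl2), each with an adjusted p of 0.999, and the corresponding values within the run 5 to 8 were 0.29, -0.01, 0.23 and 0.27. A p over the threshold does not show that IL-12 had no effect on them at 2 h.

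The same comparisons were made within the runs. In the run 5 to 8, where 2.7% of all genes were called lower, Fos, Fosb and Fosl2 were lower at IL-12 8 h than in untreated cells by log2 changes of -0.79 (adjusted p 9.2e-05), -1.19 (adjusted p 2.87e-06) and -1.05 (adjusted p 3.59e-05). In the comparison of IL-12 8 h with 2 h, the changes were -0.78 in the run 2 to 4 and -1.08 in the run 5 to 8 for Fos, -0.78 and -1.19 for Fosb, -0.63 and -0.78 for Fosl1, and -1.02 and -1.32 for Fosl2. All 4 were called lower in both runs, where 5.67% of all genes were called lower in the run 2 to 4 and 3.58% in the run 5 to 8. In a fit of the arrays numbered 5 to 8 alone, the call of Fosl1 was lost (-0.78, adjusted p 0.0917). With the baseline array pooled with the untreated arrays, the calls of Fos (-0.40, adjusted p 0.46), Fosb (-0.64, adjusted p 0.384) and Fosl2 (-0.73, adjusted p 0.0874) against untreated were lost. With the macrophage covariate the call of Fos was lost (-0.75, adjusted p 0.0783).

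**Figure D3:**
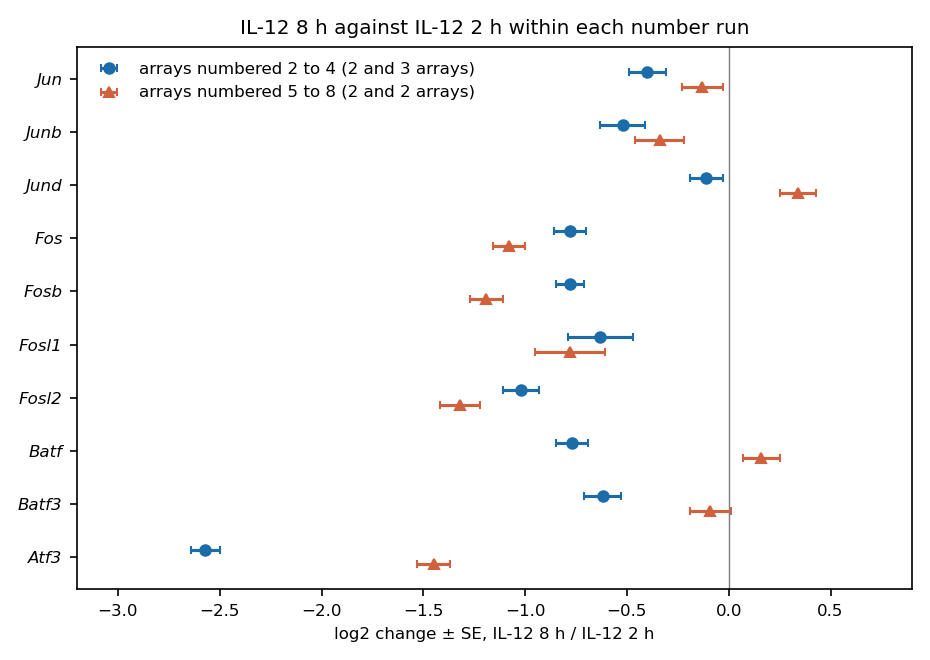
Log2 change of the 10 genes for IL-12 8 h against IL-12 2 h within the arrays numbered 2 to 4 (circles, 2 and 3 arrays) and within those numbered 5 to 8 (triangles, 2 and 2 arrays), with bars for the SE of the fit with separate means. Batf is at -0.77 in the run 2 to 4 and 0.16 in the run 5 to 8, and Atf3 at -2.57 and -1.45.

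Batf changed with time on IL-12 in the run 2 to 4, by an amount that differed from the run 5 to 8. BATF lacks a transactivation domain and works with Jun proteins and IRF4 in T helper cells. It had 9.82, 9.91, 9.65 and 9.84 log2 intensity on IL-12 8 h arrays 2, 3, 5 and 6, and 10.67, 10.58, 10.66, 9.53 and 9.63 on IL-12 2 h arrays 2 to 6. It had 9.48 and 9.40 on untreated arrays and 9.94 at baseline. The IL-12 2 h arrays of the run 2 to 4 were above all others. Those of the run 5 to 8 were close to the untreated arrays, though above both. The change of Batf at IL-12 8 h against 2 h was -0.77 ± 0.08 in the run 2 to 4 (adjusted p 3.04e-05) and 0.16 in the run 5 to 8 (adjusted p 0.361). The difference between these changes was -0.93 ± 0.12 (limma interaction term, adjusted p 0.00191), where 0.987% of all genes were called lower for this term. The pooled change, -0.35 ± 0.14 (adjusted p 0.13), is therefore no summary of either run. Against untreated cells, Batf changed by 0.40 ± 0.19 at IL-12 2 h (adjusted p 0.999) and 0.05 ± 0.19 at IL-12 8 h (adjusted p 0.951), and by 0.14 and 0.30 within the run 5 to 8, with adjusted p over 0.05 in each.

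Batf3, a related factor known for its role in dendritic cell development, was also high on the IL-12 2 h arrays of the run 2 to 4. It had 8.39, 8.42, 8.28 and 8.40 on IL-12 8 h arrays and 9.08, 8.93, 9.05, 8.53 and 8.32 on IL-12 2 h arrays, against 8.47 and 8.30 on untreated arrays and 8.36 at baseline. The 3 arrays of IL-12 2 h in the run 2 to 4 were high and the other 9 arrays lay between 8.28 and 8.53. Batf3 was 1.3-fold lower at IL-12 8 h than at 2 h (-0.38 ± 0.10, adjusted p 0.0186), with -0.62 in the run 2 to 4 (adjusted p 0.000404) and -0.09 in the run 5 to 8 (adjusted p 0.72), a difference of -0.53 ± 0.13 (adjusted p 0.0517). With the replicate block the call was lost (-0.34, adjusted p 0.118), as it was without IL-12 8 h array 2 (-0.31, adjusted p 0.0876) or array 3 (-0.32, adjusted p 0.0921). Its changes against untreated cells were 0.18 (IL-12 2 h) and -0.19 ± 0.13 (IL-12 8 h), neither past the test.

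Atf3 had the largest fall among the members with time on IL-12. It had 8.97, 8.98, 9.61 and 9.58 log2 intensity on IL-12 8 h arrays 2, 3, 5 and 6, and 11.56, 11.55, 11.50, 11.00 and 11.08 on IL-12 2 h arrays 2 to 6. It had 11.07 and 10.99 on untreated arrays and 10.23 at baseline. The IL-12 8 h arrays were the lowest of all, below the baseline array, and the IL-12 2 h arrays of the run 5 to 8 were level with the untreated arrays. Atf3 was 4.16-fold lower at IL-12 8 h than at 2 h (-2.06 ± 0.16, adjusted p 1.86e-06) and 3.34-fold lower than in untreated cells (-1.74 ± 0.22, adjusted p 0.000417). The call against untreated cells was lost with the macrophage covariate (-1.65, adjusted p 0.0952).

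The change of Atf3 at IL-12 8 h against 2 h was -2.57 ± 0.07 in the run 2 to 4 (adjusted p 1.05e-10) and -1.45 ± 0.08 in the run 5 to 8 (adjusted p 2.26e-07), a difference of -1.12 ± 0.10 (interaction adjusted p 0.00015). Against untreated cells within the run 5 to 8, Atf3 changed by -1.44 at IL-12 8 h (adjusted p 2.46e-07) and by 0.01 at IL-12 2 h (adjusted p 0.999). The pooled value at IL-12 2 h was 0.31 ± 0.22 (adjusted p 0.999). The run term of Atf3 was -0.01 ± 0.16 (95% interval -0.35 to 0.33, adjusted p 0.974). Its IL-12 8 h arrays were lower in the run 2 to 4 than in the run 5 to 8, and its IL-12 2 h arrays were higher. The pooled -2.06 is therefore the size of the change in neither run, though Atf3 was called lower in both. The pooled -1.74 against untreated cells also draws on IL-12 8 h arrays of the run 2 to 4, which has no untreated array.

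In the model, the term for numbers 2 to 4 against 5 to 8 called 3 members higher (Junb 0.26 ± 0.08, adjusted p 0.0389; Batf 0.63 ± 0.14, adjusted p 0.00444; Batf3 0.36 ± 0.10, adjusted p 0.0151). It called 3 lower: Fos (-0.21 ± 0.07, adjusted p 0.0373), Fosb (-0.34 ± 0.08, adjusted p 0.00614) and Fosl2 (-0.50 ± 0.08, adjusted p 0.000327). Of all genes, 11.8% were called higher and 12.5% lower by this term, beside 3 of 10 members in each direction. Jun changed by -0.19 ± 0.08 (adjusted p 0.0848), Jund by 0.07 (adjusted p 0.576) and Fosl1 by -0.24 (adjusted p 0.153). Leaving out single IL-12 arrays ended the run call of Fos (-0.14 to -0.23 without IL-12 8 h array 2 or any 1 of IL-12 2 h arrays 2 to 6), of Junb (0.17 to 0.26 without IL-12 8 h array 2 or 5 or IL-12 2 h array 2, 3 or 6) and of Batf3 (0.25 without IL-12 2 h array 6). Cell type markers also differed by this term, those of CD4+ T cells included. Of 8 CD4+ T cell markers, 2 were higher and 2 were lower in the run 2 to 4. Of 15 macrophage and monocyte markers, 1 was higher and 6 were lower in the run 2 to 4, of 7 B cell markers 4 were higher, and of 6 NK cell markers 1 was higher and 4 were lower. Of the 2 CD8 genes 1 was lower, as were 2 of 8 dendritic cell markers (1 higher) and 1 of 10 neutrophil markers (2 higher). At IL-12 8 h against 2 h, 3 of 8 CD4+ T cell markers were higher (Cd3d, Cd28 and Cd6), where 6.27% of all genes were called higher. Of 6 NK cell markers 1 was higher and 1 lower there, where 6.36% were called lower. At IL-12 8 h against untreated cells, Msr1 and Klrb1c were lower, where 2.13% were called lower. No marker was called at IL-12 2 h against untreated cells, where limma called only 14 of all genes. The part of these markers in the members' differences was not tested beyond the macrophage covariate.

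Untreated cells at 2 h were set against the single baseline array, so the spread in this comparison comes from the other groups. Fosb was 2.49-fold higher in untreated cells (1.31 ± 0.14, adjusted p 5.79e-05), Fos 1.89-fold higher (0.92 ± 0.13, adjusted p 0.000407) and Fosl2 1.63-fold higher (0.71 ± 0.14, adjusted p 0.00453), in addition to Jun. Fosl2 did not pass with the baseline array counted in the run 2 to 4 (0.21) or with no run term (0.71). None of the 4 passed with the macrophage covariate, with changes of 1.23 (Fosb), 0.99 (Fos), 0.88 (Fosl2) and 0.75 (Jun). Junb changed by 0.37 (adjusted p 0.161), Fosl1 by 0.60 ± 0.21 (adjusted p 0.0946; 0.89 and called without untreated array 8, adjusted p 0.0119; 0.30 without untreated array 7), Atf3 by 0.79 ± 0.29 (adjusted p 0.105), Jund by -0.20 (adjusted p 0.476), Batf by -0.50 ± 0.25 (adjusted p 0.256) and Batf3 by 0.02 (adjusted p 0.963). With separate means for each run, Atf3 was higher (0.79, adjusted p 9.91e-05) and Batf lower (-0.50, adjusted p 0.00714) in untreated cells, where 7.69% of all genes were called higher and 5.09% lower. Of the markers of other cell types, 3 of 7 B cell markers were lower in untreated cells than at baseline, while 2 of 15 macrophage, 2 of 6 NK cell, 1 of 8 dendritic cell and 1 of 2 CD8 markers were higher, and their part was not tested beyond the macrophage covariate.

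The genes whose values over the 12 arrays were most like those of Jun, among 2294 genes with an SD of at least 0.25 log2, were D730005E14Rik (Pearson r 0.962, Spearman rho 0.832), Cd86 (0.926 and 0.776), Furin (0.925 and 0.797), Il18r1 (0.916 and 0.636) and Gnaq (0.897 and 0.727). Furin and Il18r1 are known IL-12 response genes. The genes most like Atf3 were Slamf1 (0.984 and 0.958), Lif (0.980 and 0.986), Ccr8 (0.979 and 0.909), Pdcd1lg2 (0.979 and 0.951) and Plaur (0.968 and 0.874). With the run term taken off, 4 of the 5 stayed for each. These are descriptions over 12 arrays of 4 groups and not independent points. Among the members, Jun correlated with the others at r of 0.11 (Fosl2) to 0.44 (Junb), while Fos and Fosb correlated at 0.95 and Atf3 with Fos at 0.85.

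**Figure D4:**
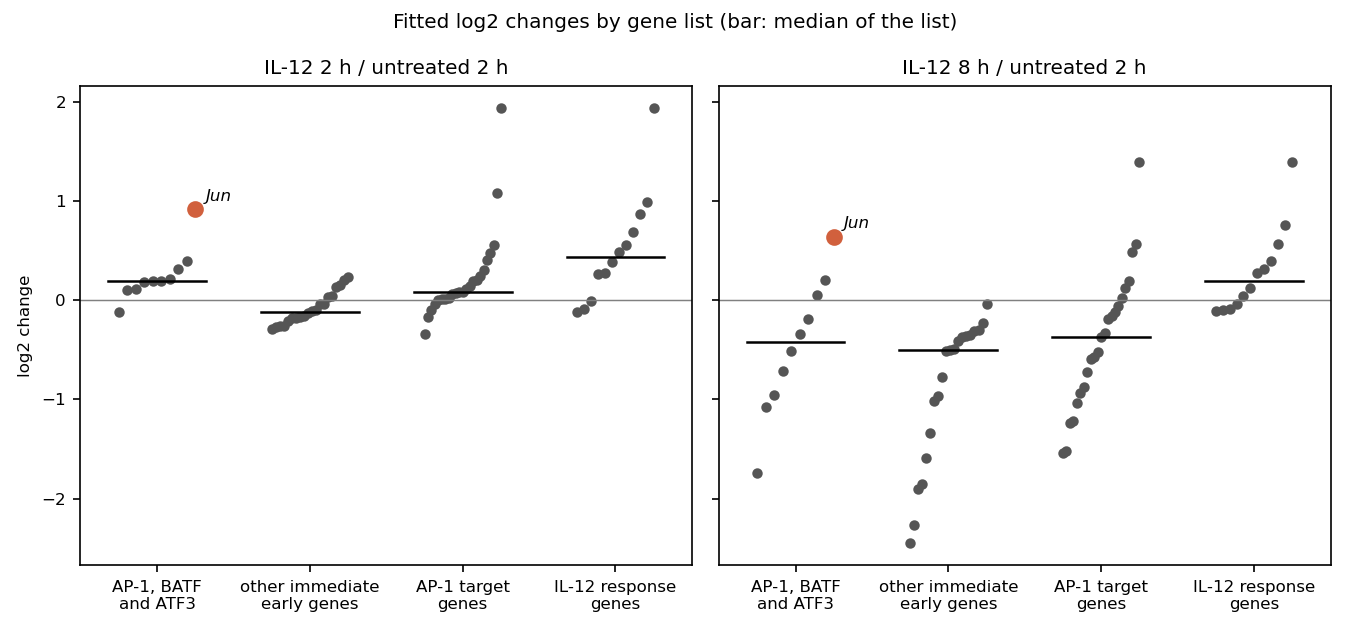
Fitted log2 change of each gene (points) and the median of its list (bars) for the 10 AP-1, BATF and ATF3 genes, other immediate early genes, AP-1 and NFAT target genes and IL-12 response genes, at IL-12 2 h (left) and IL-12 8 h (right) against untreated 2 h. Jun (0.92 and 0.64) lies above the other members in both panels, and the immediate early list has medians of -0.12 and -0.50.

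The other genes of the pathway were described by counts over lists. At IL-12 2 h against untreated cells, 0.0709% of all genes were called higher. After 2 h of IL-12, no gene passed among 23 other bZIP factors (median 0.11), 24 JNK, p38 and ERK pathway genes (-0.03), 14 phosphatases and ubiquitin ligases that limit AP-1 (-0.05), 11 NFAT and IRF partners (0.02), 20 other immediate early genes (-0.12) or 8 heat shock genes (-0.03). At an unadjusted limma p under 0.05, these lists had 2, 4, 3, 2, 2 and 0 genes. Of 23 known AP-1 and NFAT targets 1 was higher, Ifng, the Th1 cytokine (1.94 ± 0.20, adjusted p 0.0025). Of 12 IL-12 response genes 4 were higher: Ifng, Furin, a proprotein convertase (0.87 ± 0.09, adjusted p 0.0025), Il18rap (0.69 ± 0.08, adjusted p 0.00561) and Il18r1, both subunits of the IL-18 receptor (0.99 ± 0.13, adjusted p 0.0102).

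At IL-12 8 h against untreated cells, 2.13% of all genes were called lower. Of the 23 other bZIP factors 4 were lower, among them Crem, a cAMP-responsive factor (-0.87 ± 0.10, adjusted p 0.000287), and Bach1 (-0.62 ± 0.09, adjusted p 0.00109). Of the kinase list 6 were lower, led by Map2k3, a p38 activator (-0.86 ± 0.08, adjusted p 3.17e-05), and Map3k8 (-0.68 ± 0.12, adjusted p 0.00496). Of the 14 limiting genes 6 were lower, led by Dusp4 (-1.25 ± 0.11, adjusted p 2e-05) and Dusp5 (-0.79 ± 0.08, adjusted p 7.06e-05), which encode MAP kinase phosphatases. Mapk8, which encodes JNK1, was also lower (-0.54 ± 0.12, adjusted p 0.0214). The other JNK genes, Mapk9 (0.06, adjusted p 0.876) and Mapk10 (0.02, adjusted p 0.961), were not called.

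Immediate early genes outside AP-1 were lower at IL-12 8 h in both comparisons. Of all genes, 2.13% were called lower and 1.04% higher against untreated cells, and 6.36% lower against IL-12 2 h. At IL-12 8 h against untreated cells 12 of 20 were lower (median -0.50), led by Nfkbid (-1.85 ± 0.11, adjusted p 9.1e-07), Nr4a3 (-2.45 ± 0.15, adjusted p 9.1e-07) and Nr4a1 (-2.27 ± 0.14, adjusted p 1.07e-06); Nr4a3 and Nr4a1 encode nuclear receptors induced by antigen receptor signals. At IL-12 8 h against 2 h 15 of 20 were lower (median -0.63). Among the AP-1 and NFAT targets, 15 of 23 were lower at IL-12 8 h than at 2 h (median -0.55), led by Ccl4 (-1.0 ± 0.07, adjusted p 1.07e-06), Cd69 (-1.14 ± 0.09, adjusted p 1.49e-06), Il2 (-2.10 ± 0.20, adjusted p 1.32e-05) and Il4 (-1.48 ± 0.14, adjusted p 1.42e-05). Of the 11 NFAT and IRF partners 7 were lower in this comparison (median -0.30), among them Irf4, the partner of BATF (-1.0 ± 0.16, adjusted p 0.000937). For this change, the limma interaction term between the runs was called (adjusted p under 0.05) for Irf4, Il2, Ifng, Nr4a1 and Nr4a3, among others. Of the 20 immediate early genes, it called 3 higher and 4 lower. Of the 23 targets it called 2 higher and 5 lower, and of the 12 IL-12 response genes 2 lower. Of all genes, 0.987% were called lower by it. The pooled values of the genes it called join unlike runs. Of the IL-12 response genes 5 were lower at 8 h than at 2 h, while 4 were still higher than in untreated cells: Ifng (1.39 ± 0.20, adjusted p 0.00125), Furin (0.57 ± 0.09, adjusted p 0.00346), Il18r1 (0.76 ± 0.13, adjusted p 0.00595) and Tbx21, which encodes the Th1 factor T-bet (0.40 ± 0.10, adjusted p 0.0406).

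Against baseline, 6.28% of all genes were called higher in untreated cells and 3.96% lower. Of the 20 immediate early genes 13 were higher and none was lower (median 0.87), led by Egr1 (1.51 ± 0.10, adjusted p 1.18e-06) and Nr4a2 (2.15 ± 0.15, adjusted p 1.92e-06). Of the AP-1 and NFAT targets 12 were higher and 1 lower, with Il2 3.06 ± 0.36 higher (adjusted p 0.00013). Of the kinase list 11 were higher and 1 lower, and of the limiting genes 4 were higher. Of 8 heat shock genes, 1 was lower in untreated cells than at baseline, Hspe1 (-0.46 ± 0.13, adjusted p 0.0334). At IL-12 8 h against 2 h 1 of 8 was lower, Hspa1a (-0.35 ± 0.09, adjusted p 0.0232), where 6.36% of all genes were called lower. The change of Hspa1a differed between the runs (limma interaction term, adjusted p under 0.05), so its value pools unlike runs.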

How the data were processed

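Expression was profiled by Affymetrix Mouse Gene ST arrays in 12 samples of splenic CD4+ T cells. The deposited values are linear-scale intensity, 1 per array for each of 24922 probe sets. RMA and Affymetrix Power Tools appear in the submitters' processing notes, without versions. For the genome build and probe annotation used upstream, a name is not given in the sources used here. Array medians of intensity were 160.6 to 167.3, within a total range of 7.52 to 21170. Each value column was named by the accession of 1 sample, and 0 columns belonged to no sample of the series.

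The deposited intensity was converted to log2 with no further normalization. The platform annotation gave 1 symbol for 21425 probe sets, several for 1399 and none for 2098. Where a gene had several probe sets (921 genes), the one with the highest mean was kept, leaving 19752 genes, with no filter on low values. A single linear model (limma 3.58.1, R 4.3.3) held 4 group means and a term for the run of title numbers over all arrays, with 7 residual and 6.84 prior degrees of freedom. Tests were two-sided, with Benjamini-Hochberg adjustment over all genes and calls at adjusted p under 0.05. The median SE of log2 changes was 0.0949 against untreated cells, 0.0689 between both IL-12 times and 0.125 against baseline, and precision is limited by the number of arrays. The difference between runs was an interaction term over the 9 IL-12 arrays. Values within a run came from separate means for each group and run (6 residual degrees of freedom), an alternative chosen after seeing the data. Other alternatives changed the run term, the baseline array's place, offset, probe set rule, filter, scaling, variance model and macrophage covariate, or left out arrays. Jun minus Junb was compared by exact permutation. The gene test was also tested on simulated data. Plots were drawn with Python 3.11.15 and matplotlib 3.10.9.

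Both IL-12 groups share the numbers 2, 3, 5 and 6, and no label says what a number marks. Deviations from group means correlated between same-numbered arrays at r of 0.36, 0.30, 0.52 and 0.37, all over 0.1, so results with the title number as a replicate block are given where they change a call. For the numbers 2, 3 and 6, an IL-12 2 h array of another number correlated more highly with the IL-12 8 h array (0.50, 0.50 and 0.43). For the number 5 none did (at most 0.41). Taken from means within each run, the correlations of same-numbered arrays were -0.26, -0.18, 0.03 and 0.03.

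The members and the lists were chosen with earlier results of these data known. Named genes are all 10 members whatever their result, up to 4 called genes with the smallest p of each list and comparison, and the 5 genes most like Jun and the 5 most like Atf3 over the arrays. Mapk8, Mapk9 and Mapk10 are outside that rule and were chosen after their values were seen. Upstream windows are RefSeq's on GRCm38.p6.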

Additional observations from a re-analysis of the deposited data

Results flagged for a closer look

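Batf3 on the IL-12 8 h array numbered 5 had a log2 intensity of 8.28, while the other 3 arrays of that group had 8.39 to 8.42. The gap was 0.835 of the group's range, and this was the 1 such array found among 20 checks of the members in groups of 4 to 10 arrays; chance gives about 1 in 20.

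The change of Batf at IL-12 8 h against 2 h differed between the runs of title numbers by -0.93 on the log2 scale (numbers 2 to 4 minus numbers 5 to 8, tested with an interaction term). The change of Atf3 differed between the runs by -1.12 in the same test. What the runs are is not given by the labels. The mean of the macrophage markers was higher in the run 5 to 8, though not each marker was. Their part was not tested in the interaction.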

How the results depend on the processing

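The counts below are of genes called (all genes, then members where given). With no run term they were 9 for IL-12 2 h against untreated, 243 for IL-12 8 h against untreated, 871 for IL-12 8 h against 2 h and 115 (2 members) for untreated against baseline. With the arrays numbered 5 to 8 alone they were 1 (0 members, 3 at an unadjusted p under 0.05), 320 and 363 (4 members) for the comparisons other than baseline. With baseline pooled with untreated arrays they were 90 (2 members) for IL-12 8 h against untreated, 1227 for IL-12 8 h against 2 h and 3111 (3 members) for the runs. With baseline counted in the run 2 to 4, untreated against baseline gave 204 (2 members). With the macrophage mean as covariate, limma called 0 (0 members) for IL-12 2 h against untreated, 65 (2 members) for IL-12 8 h against untreated, 1482 for IL-12 8 h against 2 h, 91 (0 members) for untreated against baseline and 4 (0 members) for the runs. At an unadjusted p under 0.05, the counts behind the zeros were 849 genes, and 1, 4 and 1 members. This covariate largely repeats the run term, so lost calls can reflect lost precision.

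With the title number as a replicate block, IL-12 8 h against 2 h gave 1246 genes and 6 members, and it ended the calls of Jun (-0.28) and Batf3 (-0.34), and no other member's. With separate means within the run 5 to 8, that comparison gave 1108 genes. For the difference between runs, a trended, robust variance gave 4 members, and leaving out genes under the median gave 620 genes and 5 members.

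Signs turned for uncalled members. For IL-12 2 h against untreated, these were Fosl2 (-0.11, no run term), Jund (-0.02, run 5 to 8 alone or with separate means) and Fosb (0.32, baseline pooled). For IL-12 8 h against 2 h, they were Batf (0.16, run 5 to 8 alone or with separate means) and Jund (-0.11, run 2 to 4). Batf also turned at IL-12 8 h against untreated (-0.12, baseline pooled) and in untreated against baseline (0.13, baseline counted in the run 2 to 4). The run term turned for Jund (-0.09) and Atf3 (0.15) with the macrophage covariate. The cause was not tested.

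Leaving out 1 array at a time gave 2 to 14 genes (0 to 1 members) for IL-12 2 h against untreated, 267 to 663 for IL-12 8 h against untreated, 1525 to 2536 for IL-12 8 h against 2 h and 136 to 561 (2 to 4 members) for the difference between runs, and 3 to 6 members for the runs. The 2 genes came without untreated array 7, 5 without untreated array 8. Signs turned at IL-12 2 h against untreated for Fosl1 (-0.11 to 0.49) and Junb (-0.04 to 0.23), at IL-12 8 h against untreated for Batf (-0.15 to 0.11), in untreated against baseline for Batf3 (-0.06 to 0.11), in the difference between runs for Fosl1 (-0.08 to 0.38) and in the run term for Atf3 (-0.16 to 0.11). Fos, Fosb, Fosl2 and Atf3 stayed called lower at IL-12 8 h against 2 h in all 25 alternatives. With 2 untreated arrays and 1 baseline array, comparisons with them rest on few values.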

Other observations

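Among the 23 other bZIP factors, 4 were higher in untreated cells than at baseline and none was lower (limma, median 0.20), where 6.28% of all genes were called higher. Without adjustment, 8 had higher and 2 had lower values at p under 0.05. They were Nfe2l1, a CNC factor (0.62 ± 0.12, adjusted p 0.00516), Ddit3, the stress factor CHOP (0.68 ± 0.14, adjusted p 0.00741), Bach2, a repressor in T cells (0.74 ± 0.17, adjusted p 0.0103), and Atf1 (0.46 ± 0.10, adjusted p 0.0107). Of the 14 phosphatases and ubiquitin ligases that limit AP-1, the 4 higher in untreated cells were Dusp4 (1.14 ± 0.14, adjusted p 0.000197), Dusp16 (0.97 ± 0.12, adjusted p 0.000224), Dusp5 (0.77 ± 0.11, adjusted p 0.000442) and Dusp6 (0.86 ± 0.15, adjusted p 0.00203). These 4 phosphatase genes were lower at IL-12 8 h than in untreated cells, in a comparison with the same untreated arrays. The comparisons with baseline rest on its single array.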
